A study of Mus musculus with 12 samples.

Results

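The genes described here encode the factors that start protein synthesis on messenger RNA, the eukaryotic translation initiation factors. They were taken by name from a table of FPKM (fragments scaled to transcript length and to the size of the library) as every row whose symbol begins with Eif and a digit from 1 to 6. The cap-binding protein gene Eif4e, Eif4b, the 4E-binding protein genes and the eIF2 kinase genes were left out of the members and are given as a pathway list. Of 47 such rows, 45 reached 1 FPKM in at least 2 libraries, among 12511 genes of 32285 rows that did so. The other 2 were Eif4e1b, which lay between 0 and 0.0203 FPKM, and Eif2c5, which was listed at 0 in every library. All 45 are annotated as protein coding (GENCODE M21, mm10), on 16 chromosomes, with 3 of them on X or Y.

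RNA sequencing was run on total RNA of naive CD4 T cells that had been sorted from spleen and lymph nodes of C57BL/6 mice. One set of libraries, named after Mettl3 (the catalytic subunit of the m6A methyltransferase), held 3 libraries of wild type cells at 0 h, 3 of wild type cells after 48 h with anti-CD3/CD28 antibodies, which stimulate the T cell receptor and its costimulatory receptor, and 2 Mettl3-/- libraries at 0 h, numbered 1 and 3. The other set, named after Nudt21 (a subunit of the cleavage factor that takes part in the choice of polyadenylation sites), held 2 wild type and 2 Nudt21-/- libraries, all at 0 h. The labels give no age, no deleter strain and no statement that replicates were separate animals, so each p-value reflects only how much the libraries of these groups vary. By sex-linked genes, library 3 of each group of the Mettl3 set is from another animal than library 1 or 2, and among the other libraries that spread may be technical. The knockout libraries analysed here are all from 0 h. The series title links both genes to T cell homeostasis and mTOR signalling.

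Initiation begins when eIF2, carrying GTP and the initiator methionyl-tRNA, joins the small ribosomal subunit together with eIF1, eIF1A, eIF5 and the large scaffold eIF3. The eIF4F complex (the cap-binding protein eIF4E, the scaffold eIF4G and the helicase eIF4A) brings that subunit to the capped messenger RNA, where it scans for a start codon. eIF5B then joins the large subunit, and eIF2B recharges eIF2 with GTP, a step that is blocked when eIF2 kinases phosphorylate eIF2. Resting T cells make little protein, and translation increases when they are stimulated.

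The 9 T cell lineage genes used as a check were all above 1 FPKM in every library, with summed levels of 2250 to 3660 FPKM at 0 h and 1680 to 1790 FPKM at 48 h. Among resting libraries of its own set, Mettl3 ranged from 25.3 to 28.7 FPKM without the knockout and was measured at 5.35 and 6.45 FPKM in Mettl3-/- libraries 1 and 3. Nudt21 was measured at 7.57 and 6.69 FPKM in Nudt21-/- cells, against 18.2 and 16.9 FPKM in the wild type of that set. Mettl3 was also lower in Nudt21-/- libraries, at 29.1 and 26.1 FPKM against 34.4 and 33.9 FPKM in their wild type. Nudt21 stood at 17.8 and 17.2 FPKM in Mettl3-/- libraries, within the 17 to 19.2 FPKM of their resting wild type. Markers of other cells differed between libraries at 0 h. The 10 myeloid markers summed to 11.2 to 13 FPKM in wild type libraries of the Mettl3 set and to 5.92 FPKM in Mettl3-/- library 1, but to 374 FPKM in Mettl3-/- library 3. In the Nudt21 set the sums were 94.2 and 42.6 FPKM without and 212 and 314 FPKM with the knockout. The 8 B cell, 7 CD8 T and NK cell, and 8 erythroid and platelet markers were likewise higher in Mettl3-/- library 3 than in library 1, and higher in Nudt21-/- than in Nudt21 wild type libraries. Within groups, libraries correlated at 0.9906 or more (Pearson's r across genes, which are not independent replicates), except the pair of Mettl3-/- libraries at 0.9252. Over all genes FPKM summed to between 345621 and 386983, and the depth of a library is unknown from the table.

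At rest the members covered a wide range of levels. FPKM is scaled to transcript length, so levels can be set beside each other between genes, but only roughly. The annotation and the way FPKM was computed are not given, and small differences between genes may rest on them. In resting wild type cells of the Mettl3 set, Eif4a2 (389 ± 2.99 FPKM, mean ± SD, n = 3) was highest, followed by Eif1 (363 ± 14.6), Eif4a1 (254 ± 8.49), Eif5a (242 ± 2.91) and Eif3h (209 ± 10.3). Eif4a2 and Eif1 did not overlap, as the highest Eif1 library stood at 379 and the lowest Eif4a2 library at 386 FPKM, while Eif4a1 (245 to 261) and Eif5a (239 to 245) met at 245 FPKM. At the other end, Eif5a2 stood at 1.78 ± 0.622, Eif2b3 at 5.71 ± 0.536, Eif3j2 at 6.37 ± 0.768 and Eif4e3 at 9.28 ± 0.462 FPKM. After 48 h the order at the top was Eif5a (598 ± 37.4), Eif4a1 (332 ± 15.6) and Eif3h (276 ± 1.51). Together the members took 1.01% to 1.08% of the summed FPKM in these resting cells and 1.26% to 1.30% at 48 h. In the resting cells of the other groups their share was 1.06% and 1.01% in Mettl3-/-, 1.09% and 1.07% in Nudt21 wild type, and 1.01% and 0.965% in Nudt21-/- libraries.

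After 48 h of stimulation nearly all of these genes stood higher. Of 45 members, 39 rose, 5 fell and 1, the Y-linked Eif2s3y, did not pass the test (limma on log2(FPKM + 1), adjusted p below 0.05 over 12511 genes). Of all genes tested, 78.5% passed in this comparison, 43.6% higher and 34.9% lower. The median log2 change was 0.56 over the members and 0.07 over all genes tested. In 39 members every library at 48 h lay above every library at 0 h, and in 5 every one lay below (45.3% and 37.6% of all genes). On that scale 9 members rose by at least 2-fold and 1 fell by at least 2-fold. Other scalings moved the median of all genes, which was 0.07 as deposited, -0.01 after median-ratio scaling, -0.11 after quantile scaling and -0.11 after a correction for GC content and length. The correction moved genes by different amounts. Under those scalings 36, 34 and 29 members rose, and 5 fell under each. The share of higher genes among all calls was 55.5% as deposited and 50.5%, 45.7% and 45.1% under those scalings. FPKM is a share of each library's RNA, so less RNA per cell and fewer cells of a type cannot be told apart in any of these comparisons. Summed markers of other cells were low in both groups of this comparison. Myeloid markers stood at 3.15 to 4.09 FPKM at 48 h, with 2 to 4 of the 10 listed at 0 (S100a8 and S100a9 in every stimulated library), and erythroid and platelet markers went from 15.7 to 27.4 FPKM at 0 h to 0.427 to 0.89 FPKM at 48 h. Their part in the result was not tested.

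**Figure D1:**
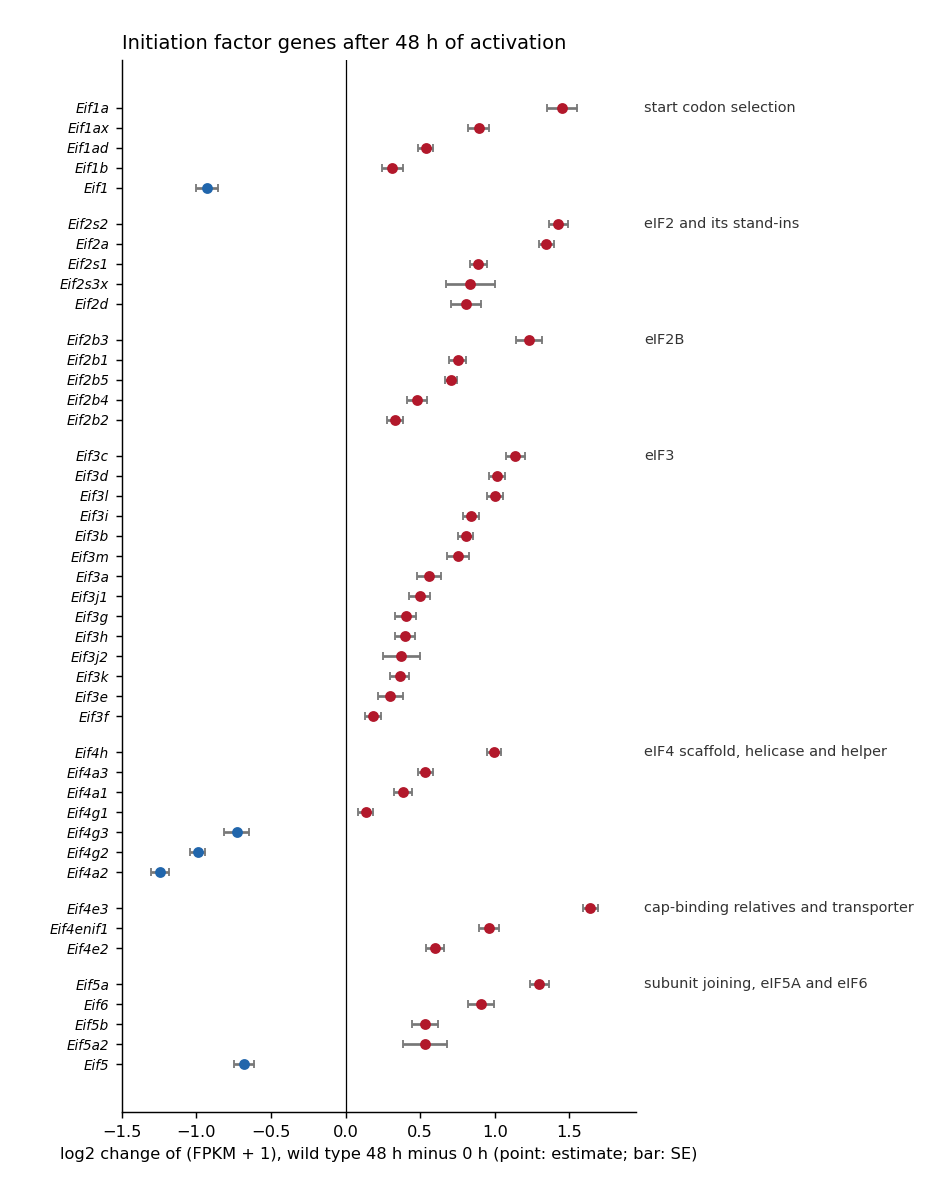
Log2 change of (FPKM + 1) in wild type cells after 48 h against 0 h for 44 initiation factor genes (Eif2s3y is not drawn), grouped by role, with points for the limma estimate and bars for its SE (n = 3 and 3 libraries). All eIF2B and eIF3 genes lie right of 0, while Eif1, Eif4g3, Eif4g2, Eif4a2 and Eif5 lie left of it.

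Of the factors that select the start codon, 4 rose and 1 fell, with a median log2 change of 0.54. Eif1, whose product sits near the P site of the small subunit and guards against wrong start codons, stood at 355, 379 and 353 FPKM in wild type libraries 1, 2 and 3 at 0 h and at 184, 192 and 194 FPKM at 48 h. All stimulated libraries lay below all resting ones, a log2 change of -0.93 (SE 0.07, limma adjusted p = 1.26e-06). Its close relative Eif1b moved the other way, from 35.9, 33.1 and 36.9 to 42.8, 45.2 and 44.5 FPKM (log2 change 0.31, SE 0.07, limma adjusted p = 0.00202). Eif1 and Eif1b share 81.1% of 339 aligned coding bases. The rise of Eif1b is the less certain of the pair, as its adjusted p was 0.0822 after quantile scaling and its change was -0.07 after the GC and length correction.

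The eIF1A genes both rose. eIF1A works beside eIF1 in scanning, and mice have an autosomal gene, Eif1a, and an X-linked one, Eif1ax, which share 85.6% of 432 aligned coding bases. Eif1a went from 11.5, 11.1 and 13.1 FPKM at 0 h to 31.6, 35.5 and 35.6 FPKM at 48 h (log2 change 1.45, SE 0.10, limma adjusted p = 3.7e-07). Eif1ax went from 11, 9.91 and 11.5 to 21, 22.4 and 19.3 FPKM (log2 change 0.89, SE 0.07, limma adjusted p = 9.57e-07). The libraries of each gene fell into separate ranges, and the ratio of Eif1a to Eif1ax was 1.04 to 1.14 at 0 h and 1.5 to 1.84 at 48 h. Eif1ad, which encodes a protein with an eIF1A-like domain, rose from 17.9 ± 1.12 to 26.4 ± 0.856 FPKM (log2 change 0.54, SE 0.05).

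All autosomal and X-linked genes of eIF2 and its stand-ins rose (5 of 6, median log2 change over the 6 of 0.86). Eif2s2, the beta subunit, stood at 27.2, 29.9 and 31.1 FPKM at 0 h and at 79.6, 85.2 and 77.3 FPKM at 48 h, with no overlap (log2 change 1.43, SE 0.07, limma adjusted p = 2.99e-08). Eif2s1, the alpha subunit whose phosphorylation blocks recharging, rose less, from 22.6 ± 1.34 to 42.7 ± 1.68 FPKM (log2 change 0.89, SE 0.06). Eif2a, which encodes a separate protein able to deliver initiator tRNA and not the alpha subunit of eIF2, stood at 20.8, 22 and 22.2 FPKM at 0 h and at 57.9, 56.7 and 55 FPKM at 48 h. Its change was among the largest (log2 change 1.35, SE 0.05, limma adjusted p = 8.56e-09). Eif2d, an unconventional tRNA-delivering factor, rose from 20.1 ± 1.67 to 35.9 ± 0.962 FPKM (log2 change 0.81, SE 0.10).

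The gamma subunit of eIF2, which binds GTP and the tRNA, is encoded by an X-linked and a Y-linked gene. Eif2s3x lies at chrX:94188707-94212862 on the minus strand and Eif2s3y at chrY:1010543-1028847 on the plus strand (mm10). Over 1416 aligned coding bases they share 86.3%, with 194 differences. A stretch from base 1024 to base 1113 of each coding sequence (GENCODE M21) is shown because reads from it can be told apart by 19 differences, which are in capitals.
Eif2s3x: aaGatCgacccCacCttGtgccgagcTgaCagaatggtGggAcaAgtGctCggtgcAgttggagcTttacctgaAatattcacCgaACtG
Eif2s3y: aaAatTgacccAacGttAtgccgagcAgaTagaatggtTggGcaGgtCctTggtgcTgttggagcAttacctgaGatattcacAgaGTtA

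Eif2s3y was listed at 0 FPKM in wild type libraries 1 and 2 of the Mettl3 set at 0 h and 48 h and in Mettl3-/- library 1. It stood at 47.7, 44 and 48.3 FPKM in wild type library 3 at 0 h, wild type library 3 at 48 h and Mettl3-/- library 3, and at 40.4, 41.3, 25.9 and 32.6 FPKM in Nudt21 wild type 1 and 2 and Nudt21-/- 1 and 2. The Y-linked genes Ddx3y, Kdm5d and Uty followed the same split, and Xist, the RNA of the inactive X, stood at 39.4 to 99.9 FPKM in the libraries with Eif2s3y at 0 and at or below 0.0142 FPKM in the others. By these genes the Mettl3 set holds cells of both sexes, same-numbered libraries are of 1 sex, and the Nudt21 set is male. Its test over groups therefore says little (log2 change -0.04, SE 1.98, limma adjusted p = 0.988).

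Eif2s3x rose in every same-numbered pair, from 51.1, 55.8 and 46.8 to 105, 108 and 68.3 FPKM in libraries 1, 2 and 3 (log2 change 0.84, SE 0.16, limma adjusted p = 0.00088). Library 3, the one with Eif2s3y, was lowest at both times. Summed over both gamma genes, the level at 0 h was 51.1 and 55.8 FPKM in the libraries without Eif2s3y and 94.5 FPKM in library 3, while at 48 h all 3 lay close together at 105, 108 and 112 FPKM. The Mettl3-/- libraries at 0 h stood at 58.6 FPKM (without Eif2s3y) and 93.8 FPKM (with it). Nudt21 libraries, all with Eif2s3y, stood at 79.4 and 77.6 FPKM for the wild type and at 63.5 and 68.3 FPKM for the knockout. Since the sexes in the Mettl3 set rest on 2 and 1 libraries, a difference between them was not tested.

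**Figure D2:**
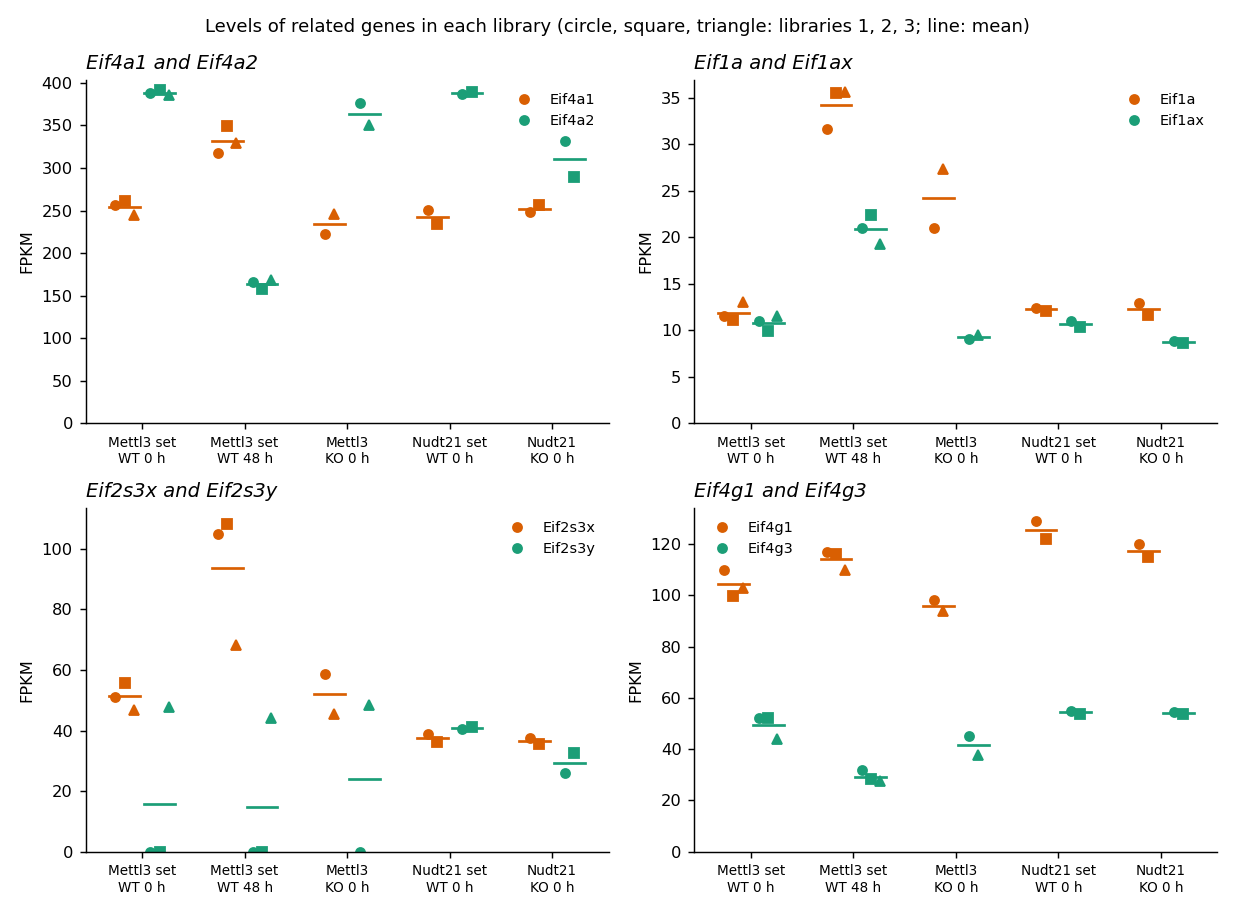
FPKM in each library (circle, square and triangle for libraries 1, 2 and 3; line for the group mean) of 4 pairs of related genes in the 5 groups, on axes that start at 0. Eif4a1 and Eif4a2 change places at 48 h, Eif1a alone of its pair stands higher in Mettl3-/- libraries (21 and 27.4 FPKM), and Eif2s3y is at 0 in 5 of the 12 libraries.

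The 5 subunit genes of eIF2B, the exchange factor that returns eIF2 to its GTP-bound form, all rose, at a median log2 change of 0.71. Eif2b3, the gamma subunit, which pairs with the catalytic epsilon subunit, stood at 5.13, 5.84 and 6.18 FPKM at 0 h and at 13.7, 15.8 and 14.7 FPKM at 48 h, the largest change of the class (log2 change 1.23, SE 0.09, limma adjusted p = 5.49e-07). Eif2b5, the catalytic subunit, rose from 23.7, 24.6 and 25 to 39.3, 41.9 and 40.5 FPKM, and its SE of 0.04 was the smallest of all members (log2 0.71, limma adjusted p = 1.3e-07). Neither gene's groups overlapped. Eif2b1 (log2 0.75), Eif2b4 (0.48) and Eif2b2 (0.33) completed the class, and the change of Eif2b2 turned to -0.06 after the GC and length correction. By these levels the subunit genes lay between 5.71 FPKM for Eif2b3 and 28.6 FPKM for Eif2b2 at 0 h, and between 14.7 FPKM for Eif2b3 and 40.5 FPKM for Eif2b5 at 48 h.

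All 14 genes of eIF3, the multi-subunit scaffold that holds the small subunit open for messenger RNA, rose, with log2 changes from 0.19 to 1.14 and a median of 0.53. Eif3c, a core subunit, stood at 69.9, 69.7 and 76.1 FPKM at 0 h and at 157, 171 and 152 FPKM at 48 h (log2 change 1.14, SE 0.06, limma adjusted p = 9.36e-08). Eif3d, a subunit that can itself bind the cap of some messages, rose from 76.6, 81 and 81.7 to 155, 165 and 167 FPKM (log2 change 1.01, SE 0.05, limma adjusted p = 7.46e-08). Eif3l rose from 74.8, 74.9 and 79.1 to 154, 163 and 145 FPKM (log2 change 1.0, SE 0.05). In all 3 genes every stimulated library lay above every resting one. The subunits did not change alike. Eif3i (0.84), Eif3b (0.80) and Eif3m (0.75) rose by intermediate amounts, and Eif3f (0.19), Eif3e (0.30), Eif3k (0.36), Eif3h (0.40) and Eif3g (0.40) by less. After the GC and length correction 9 of the 14 were still called higher. The changes were then -0.09 for Eif3f, -0.01 for Eif3k, 0.02 for Eif3h, 0.03 for Eif3g and 0.14 for Eif3j2 (limma adjusted p of 0.218 to 0.877).

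At 0 h the subunit genes other than Eif3j1 and Eif3j2 lay within a 2.92 to 3.49-fold span of FPKM in each wild type library of the Mettl3 set, and at 48 h within 2.68 to 2.87-fold. Eif3c, Eif3d, Eif3l and Eif3b, which were among the lower ones at rest, came nearer to Eif3h and Eif3k, the higher ones. The loosely bound j subunit stood apart at a mean of 13.6 ± 0.932 FPKM for Eif3j1 and 6.37 ± 0.768 FPKM for Eif3j2 at 0 h. The coding sequences of Eif3j1 and Eif3j2 were identical over 783 aligned bases, so reads cannot be split between them within the coding part and both values are uncertain. Eif3j2 rose by 0.37 (SE 0.13, limma adjusted p = 0.0199), and the call was lost when any 1 of 4 libraries was left out (wild type 1 or 3 at 0 h, or wild type 2 or 3 at 48 h, adjusted p of 0.0552 to 0.0714).

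**Figure D3:**
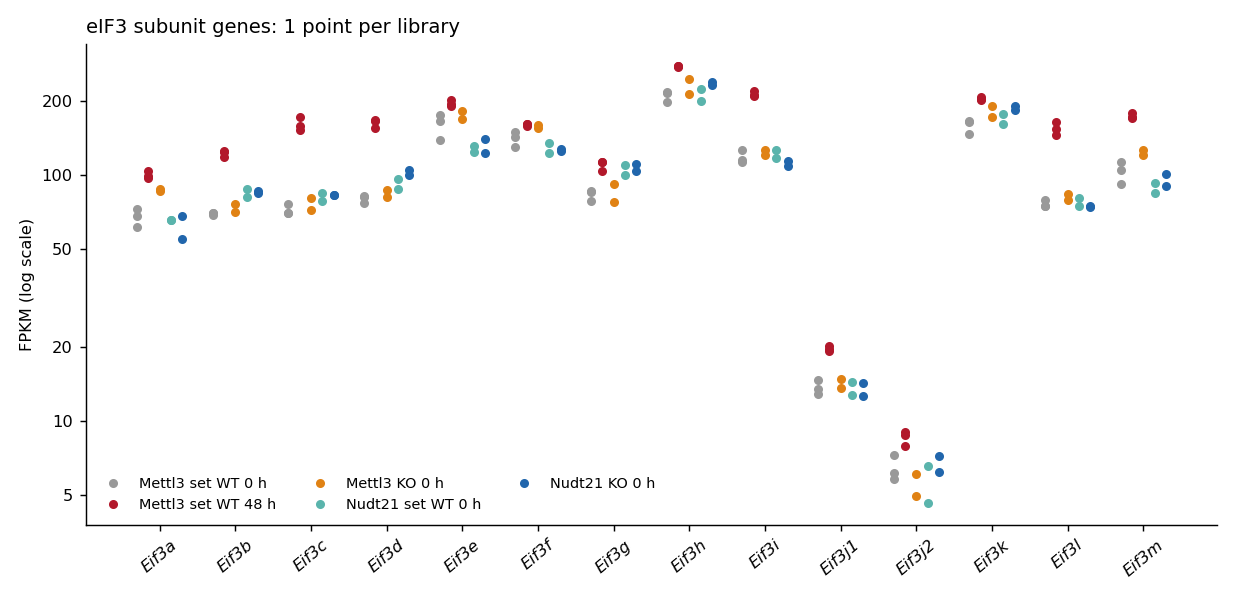
FPKM on a log axis of the 14 eIF3 subunit genes, 1 point per library and 1 colour per group. The stimulated libraries lie above the resting wild type libraries of the Mettl3 set for every subunit, and the j subunit genes lie well below the rest in all groups.

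The eIF4 class, which prepares the capped messenger RNA, was split, with 4 genes higher, 3 lower and a median log2 change of 0.14. The split ran between close relatives. Eif4a1 (chr11:69666936-69672423, minus strand) and Eif4a2 (chr16:23107444-23114136, plus strand, mm10) encode the related DEAD-box helicases eIF4A1 and eIF4A2, and share 78.2% of 1218 aligned coding bases. The stretch below runs from base 280 to 369 of the Eif4a1 and from base 286 to 375 of the Eif4a2 coding sequence (GENCODE M21) and is shown because these related genes changed in opposite directions. Its 30 differences, by which reads can be assigned to 1 gene, are in capitals.
Eif4a1: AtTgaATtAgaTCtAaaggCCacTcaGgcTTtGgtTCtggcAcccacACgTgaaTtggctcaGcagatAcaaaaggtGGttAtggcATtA
Eif4a2: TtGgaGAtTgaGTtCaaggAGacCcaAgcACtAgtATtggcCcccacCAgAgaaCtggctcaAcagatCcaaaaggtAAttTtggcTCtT

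Eif4a1 stood at 256, 261 and 245 FPKM at 0 h and at 318, 349 and 329 FPKM at 48 h (log2 change 0.38, SE 0.06, limma adjusted p = 0.000172). Eif4a2 stood at 388, 392 and 386 FPKM at 0 h and at 166, 158 and 168 FPKM at 48 h (log2 change -1.24, SE 0.06, limma adjusted p = 3.99e-08), the largest fall of any member. The ranges of each gene were apart at both times, and the order of the pair was reversed. The ratio of Eif4a1 to Eif4a2 was 0.653 ± 0.0178 at 0 h and 2.03 ± 0.161 at 48 h (mean ± SD, n = 3 and 3), while their sum went from 643 ± 11.1 to 496 ± 11.1 FPKM. Unstimulated cells of the other groups kept ratios below 1, with 0.593 and 0.701 in Mettl3-/-, 0.649 and 0.602 in Nudt21 wild type, and 0.746 and 0.886 in Nudt21-/- libraries. The rise of Eif4a1 did not pass after the GC and length correction, whereas the fall of Eif4a2 passed under every setting tried.

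The eIF4G scaffolds also diverged. Eif4g1, the main scaffold, was almost level, at 110, 99.8 and 103 FPKM at 0 h and 117, 116 and 110 FPKM at 48 h (log2 change 0.14, SE 0.05, limma adjusted p = 0.0336). The ranges touched at 110 FPKM when rounded, and the call was lost when any 1 of 4 libraries was left out (wild type 2 or 3 at 0 h, or wild type 1 or 2 at 48 h, adjusted p of 0.0783 to 0.109). Eif4g3, its relative, fell from 52, 52.1 and 43.9 to 31.9, 28.4 and 27.6 FPKM (log2 change -0.73, SE 0.09, limma adjusted p = 2.27e-05). Eif4g2, a shortened relative also known as DAP5 that lacks the eIF4E-binding part, fell from 167, 150 and 156 to 77.9, 78.8 and 79.1 FPKM (log2 change -0.99, SE 0.05, limma adjusted p = 5.58e-08). For both, every stimulated library lay below every resting one. Eif4h, which stimulates the helicase, rose from 82.7 ± 5.12 to 166 ± 1.94 FPKM (log2 change 0.99, SE 0.05), and Eif4a3, a related helicase of the exon junction complex, from 72.4 ± 0.891 to 106 ± 4.91 FPKM (log2 change 0.54, SE 0.05).

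The relatives of the cap-binding protein all rose. Eif4e3 (ENSMUSG00000093661, chr6:99625135-99666771, minus strand), an atypical cap-binding protein, stood at 8.93, 9.1 and 9.8 FPKM at 0 h and at 30.1, 30.5 and 32.6 FPKM at 48 h, the largest rise of any member (log2 change 1.64, SE 0.05, limma adjusted p = 4.3e-09). Its groups lay far apart. Eif4e2, also called 4EHP, a cap-binding protein known for repressing translation, rose from 33 ± 2.07 to 50.4 ± 2.12 FPKM (log2 change 0.60, SE 0.06), and Eif4enif1, the transporter that carries eIF4E into the nucleus, from 31.2 ± 1.15 to 61.8 ± 6.33 FPKM (log2 change 0.96, SE 0.07).

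Late factors rose except Eif5. Eif5 (ENSMUSG00000021282, chr12:111538016-111546752, plus strand), which makes eIF2 hydrolyse its GTP at the start codon, stood at 140, 121 and 122 FPKM at 0 h and at 81.3, 82 and 74.5 FPKM at 48 h (log2 change -0.68, SE 0.06, limma adjusted p = 4.48e-06). Eif5a (ENSMUSG00000078812, chr11:69916714-69921958, minus strand), the hypusine-carrying factor that relieves stalled ribosomes, stood at 239, 245 and 243 FPKM at 0 h and at 585, 640 and 568 FPKM at 48 h (log2 change 1.30, SE 0.06, limma adjusted p = 3.97e-08). Neither gene's groups overlapped. Its relative Eif5a2 stood at 1.45, 1.39 and 2.5 FPKM at 0 h and at 2.91, 3.04 and 2.92 FPKM at 48 h (log2 change 0.53, SE 0.15, limma adjusted p = 0.00703), so Eif5a held at least 97.1 times the FPKM of Eif5a2 in each of these 6 libraries. Eif6, which keeps the large subunit from joining too early, rose from 41.5 ± 3.64 to 79 ± 8.14 FPKM (log2 change 0.91, SE 0.09), and Eif5b, the GTPase of subunit joining, from 15.2 ± 1.75 to 22.3 ± 1.56 FPKM (log2 change 0.53, SE 0.09).

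Of the 44 calls with activation, 33 passed under every setting and with any 1 library left out, among them all 5 falls. The 5 genes that fell had transcripts with a median GC content of 43.23%, against 49.77% for the 39 that rose and 49.63% for all genes tested, and their part in the result was not tested beyond the correction named above. The genes lie apart in the genome, and the closest neighbours among them were Eif2b5 and Eif4g1 (158990 bases apart on chromosome 16), Eif4a1 and Eif5a (244291 bases on chromosome 11) and Eif2s2 and Eif6 (926897 bases on chromosome 2).

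Promoters were read for the E-box CACGTG, a palindrome that reads the same on both strands and that Myc and related factors can bind. RefSeq windows from 250 bases before to 50 after a start (GRCm38.p6) existed for 36 of the 45 members, and 9 of them, or 25%, held the motif in at least 1 window. Among tested genes with a window the share was 12% of 9346, and among all genes with one 8.09% of 27025. Genes with several starts have several windows, so these shares depend on their number. The 9 were Eif1b, Eif3a, Eif3f, Eif3k, Eif4a1, Eif4g1, Eif4h, Eif5a and Eif5a2, and 9 of 9 rose with activation, where 39 of all 45 members and 43.6% of all genes tested did. Of these 9 calls, 6 were lost under at least 1 setting. A match is a string of letters and no evidence of binding. The surroundings of the motif, in capitals, are shown for the 3 of these 9 that were also among the members of largest change in a comparison, as 28 bases on the gene's strand (mm10).
Eif1b, chr9:120492571-120492598, plus strand: gtgcggacggtCACGTGgcggcggcgcg
Eif3a, chr19:60790655-60790682, minus strand: cgcgagggaatCACGTGgttccttcctt
Eif5a, chr11:69920792-69920819, minus strand: cgctgcgcggcCACGTGaggtgggggag
Eif5a, chr11:69921444-69921471, minus strand: aggggcggggtCACGTGtgtgcgtcatc

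Other genes of the pathway changed with activation in both directions. Of 9 genes for cap binding and the eIF2 kinases that the naming rule had left out, 4 rose and 3 fell. Eif4ebp1, the repressor that sequesters eIF4E until mTORC1 phosphorylates it, stood at 1.74, 1.21 and 1.98 FPKM at 0 h and at 42.9, 48 and 41.8 FPKM at 48 h (log2 change 4.11, SE 0.12, limma adjusted p = 3.77e-09). Eif4e itself rose from 10.7 ± 1.28 to 26.7 ± 1.19 FPKM (log2 change 1.25, SE 0.10), Eif4b, a helicase cofactor, from 115 ± 8.93 to 203 ± 1.81 FPKM (log2 change 0.82, SE 0.06), and the kinase gene Eif2ak4, which senses uncharged tRNA, from 5.15 ± 0.236 to 9.75 ± 0.464 FPKM (log2 change 0.81, SE 0.06). None of these 4 genes had overlapping groups. The change of Eif4ebp1 was larger than that of any of the 45 members.

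Of 20 initiation helpers, 7 rose and 8 fell. Ppp1r15a, also called GADD34, which directs a phosphatase to eIF2 alpha, fell from 164, 153 and 148 to 13.7, 14.2 and 16.9 FPKM (log2 change -3.30, SE 0.16, limma adjusted p = 3.56e-08). Pabpc4, a poly(A)-binding protein gene, rose by 1.32, Dohh, an enzyme that makes hypusine on eIF5A, by 0.88 and Larp1, a regulator of messages for ribosomal proteins, by 0.81 on the log2 scale. Of 11 elongation genes, 7 rose and 2 fell, led by Eef1e1 (0.99), Eefsec (0.57), Eef2k (1.29) and Eef1g (0.58). Of 7 termination and rescue genes, 3 rose and 3 fell, with Pelo (1.22), Gspt1 (1.14) and Etf1 (0.87) higher and Upf1 (-0.32) lower. The median log2 changes were 0.08, 0.06, 0.33 and 0.05 for the 4 lists in this order, beside 0.07 over all genes tested.

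In resting Mettl3-/- cells few members changed. Of 45, 8 were higher and 1 lower than in the wild type of the set, and 36 did not pass (limma, adjusted p below 0.05), where 28.9% of all genes tested passed, 16.8% higher and 12% lower. The median log2 change was 0.07 over the members and 0.04 over all genes. The balance depended on the scaling, with 4 members higher and 5 lower after the GC and length correction, 6 and 3 after median-ratio and 8 and 3 after quantile scaling. Higher genes made up 58.3% of all calls as deposited, and 34%, 47% and 37.3% under these scalings. In 16 members both knockout libraries lay above all 3 wild types and in 7 both lay below (27.4% and 21.2% of all genes). The 9 called members are 20% of the 45, below the share over all genes. Markers of other cells were raised mainly in library 3. There all 10 myeloid, all 7 CD8 T and NK cell and 6 of 8 B cell markers were above 1 FPKM. CD8 T and NK cell markers also summed higher in knockout library 1, at 31.8 FPKM against 14.6 to 15.7 FPKM in wild type. The other marker sums of that library lay below wild type. The part of these markers in the result was not tested beyond leaving library 3 out. That leaves 1 knockout library, the one with the higher CD8 T and NK cell sum than wild type. Fewer members then passed, and fewer of all genes tested did so too.

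Eif1a was the member that changed most. It stood at 11.5, 11.1 and 13.1 FPKM in wild type libraries 1, 2 and 3 and at 21 and 27.4 FPKM in Mettl3-/- libraries 1 and 3 (log2 change 0.96, SE 0.11, limma adjusted p = 0.000422). Both knockout libraries lay above every other resting library of the series, all of which stood between 11.1 and 13.1 FPKM. Without library 3 the change was 0.78 (limma adjusted p = 0.000984), and without library 1 it was 1.14 (1.94e-05). It was the only one of the 9 calls that passed under every setting, with an adjusted p between 1.94e-05 and 0.0311. Its X-linked relative Eif1ax did not pass, at 9.08 and 9.54 FPKM against 9.91 to 11.5 FPKM in wild type (log2 change -0.19, SE 0.08, limma adjusted p = 0.0879). The ratio of Eif1a to Eif1ax was 2.31 and 2.87 in Mettl3-/- cells, above the 1.5 to 1.84 of stimulated wild type cells. Of 5 genes listed as a check of activation, 2 were called higher in Mettl3-/- cells and 0 lower. Mki67 stood at 2.26 and 13 FPKM against 0.559 to 1.11 FPKM in wild type. Il2ra stood at 3.61 and 12.4 FPKM against 2.44 to 2.86 FPKM. The part of activation or cycling in the Mettl3-/- changes was not tested.

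Smaller increases passed in 7 other genes. Eif4e3 stood at 12.1 and 12.5 FPKM against 8.93 to 9.8 FPKM in wild type (log2 change 0.37, SE 0.06, limma adjusted p = 0.0017). Eif3a, the largest eIF3 subunit, stood at 87.4 and 86.2 FPKM against 61.3 to 72.7 FPKM (log2 change 0.37, SE 0.09, limma adjusted p = 0.0151). Eif2b2 stood at 37.3 and 34 FPKM against 28 to 29.1 FPKM (log2 change 0.31, SE 0.06, limma adjusted p = 0.0054). In each of these 3 the genotypes did not overlap, and the call held without either knockout library, with 0.0116 for Eif4e3, 0.0459 for Eif3a and 0.00712 for Eif2b2 without library 3. Eif2b2 was lost with the GC and length correction (0.213), where its change was 0.13, and Eif2b2 (0.0846) and Eif3a (0.133) were lost with library weights. Eif2s2 (36.4 and 36 against 27.2 to 31.1 FPKM, log2 0.29) and Eif2b1 (17.2 and 17.7 against 13.3 to 15.6 FPKM, log2 0.27) were lost without library 3 (limma adjusted p = 0.0517 and 0.0633). Eif1b (log2 0.26) was lost without knockout library 1, wild type 1 or wild type 2 (0.0637 to 0.155), and Eif3m (log2 0.26) without any 1 of 9 libraries (0.0554 to 0.129).

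Eif4g2 was the only member called lower in Mettl3-/- cells, at 132 and 136 FPKM against 150 to 167 FPKM (log2 change -0.23, SE 0.06, limma adjusted p = 0.0146). The groups did not overlap, but the call was lost without library 1 (0.0516). Fitted with the library number as a block, 6 members were higher and 2 lower, and Eif1b (0.0933) and Eif3m (0.0674) were no longer called. Over all genes tested 1592 were then higher and 1136 lower, against 2103 and 1507 in the main fit. Fitted on the groups compared alone, only Eif1a passed. Over all 12511 genes 535 were then higher and 274 lower, against 2103 and 1507 in the main fit. By role, 2 of 5 start codon factors, 1 of 6 eIF2 genes, 2 of 5 eIF2B genes, 2 of 14 eIF3 genes and 1 of 3 cap-binding relatives were higher. In the pathway lists, 3 of 9 cap-binding and kinase genes and 4 of 11 elongation genes were higher, and 0 lower. Of 20 initiation helpers 2 were higher and 1 lower, and of 7 termination and rescue genes 1 was higher and 0 lower. Of all genes tested 16.8% were higher and 12% lower. Among the cap-binding and kinase genes called higher was Eif4ebp1 (log2 change 0.57, SE 0.14, limma adjusted p = 0.0134). Another was Eif2ak2, a kinase activated by double-stranded RNA (log2 change 0.59, SE 0.11, limma adjusted p = 0.00385). Eif2ak2 falls outside the rule for named genes and was chosen after its values were seen.

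In resting Nudt21-/- cells, 2 members were higher, 8 lower and 35 not called, where 27.8% of all genes tested passed, 8.73% higher and 19% lower. The median log2 change was -0.03 over the members and -0.05 over all genes. The direction depended on the scaling, with 5 members higher and 2 lower after median-ratio scaling, when higher genes made up 51% of all calls instead of 31.4%. With quantile scaling 2 and 5 members, and with the GC and length correction 1 and 4, were called. Both knockout libraries lay above both wild types in 7 members and below in 20 (31.1% and 44.2% of all genes). Markers of all 4 kinds of other cells were higher in the knockout libraries, for instance B cell markers at 79 and 133 FPKM against 41.2 and 26.1 FPKM, and T cell lineage genes also summed higher, at 3290 and 3660 against 2820 and 2700 FPKM. Their part in the result was not tested, and no library of this set can be left out to avoid it.

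Eif5 fell most. It stood at 82.8 and 80 FPKM in Nudt21-/- libraries 1 and 2 and at 114 FPKM in both wild types of the set (log2 change -0.48, SE 0.08, limma adjusted p = 0.00277). This was the only call of the 10 that passed under every setting, with an adjusted p between 0.000281 and 0.0292. Eif4a2 stood at 332 and 289 FPKM against 387 and 389 FPKM (log2 change -0.32, SE 0.07, limma adjusted p = 0.0111), so that knockout and wild type libraries did not overlap. Eif2b3 stood at 5.26 and 5.23 against 7.02 and 7.19 FPKM (log2 change -0.38, SE 0.11, limma adjusted p = 0.029). Smaller falls passed for Eif1ax (log2 -0.26), Eif2a (-0.23), Eif4g2 (-0.22), Eif2b1 (-0.22) and Eif1ad (-0.21).

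Eif5a and Eif4e3 were the members called higher in Nudt21-/- cells. Eif5a stood at 300 and 334 FPKM against 270 and 255 FPKM (log2 change 0.27, SE 0.08, limma adjusted p = 0.0281), and Eif4e3 at 12.1 FPKM in both knockouts against 10.6 and 10.3 FPKM (log2 change 0.20, SE 0.06, limma adjusted p = 0.043). Each of the 9 calls other than Eif5 was lost without at least 1 library (limma adjusted p up to 0.225). Leaving out any 1 library of this set leaves a lone library in its group. Fewer members then passed, and fewer of all genes tested did so too, in both directions. With the replicate block 6 members were lower and 0 higher. Over all genes tested 1851 were then lower and 787 higher, against 2383 and 1092 in the main fit. None of the 14 eIF3 genes passed in either direction (limma), with log2 changes from -0.13 to 0.24. At an unadjusted p below 0.05, 1 of the 14 was higher and 0 were lower. Eif4b, outside the members by the naming rule, was at 179 and 187 against 128 and 123 FPKM (log2 change 0.54, SE 0.07, limma adjusted p = 0.00103).

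**Figure D4:**
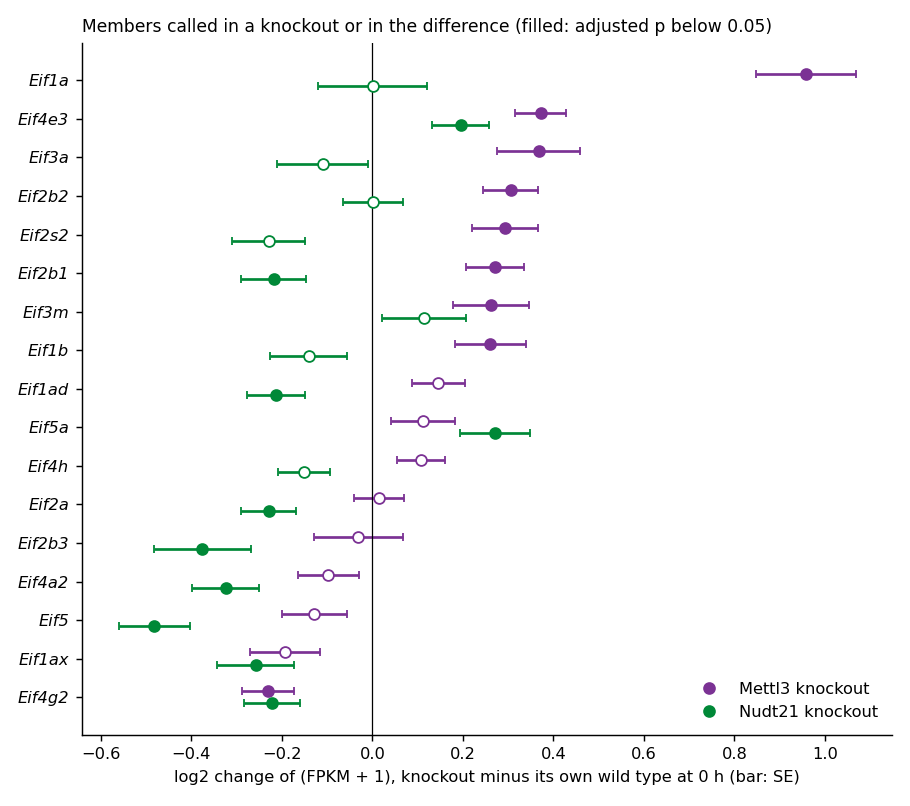
Log2 change of (FPKM + 1) in each knockout, relative to the wild type of its set, for the 17 members called in a knockout or in the difference between them, with bars for the SE and filled points for limma adjusted p below 0.05. Eif1a stands out at 0.96 in Mettl3-/- cells with 0.00 in Nudt21-/- cells, and Eif4g2 was lower and Eif4e3 higher in both.

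The changes in the knockouts were set against each other in the same model, as Mettl3-/- change minus Nudt21-/- change, each against its own wild type. Of 45 members, 9 had a more positive change in Mettl3-/- cells and 0 a more negative one. Of all genes, 25.3% passed, 17.8% higher and 7.44% lower (limma). At an unadjusted p below 0.05 these were 12 and 0. After median-ratio scaling 3 members were higher and 0 lower, after quantile scaling 6 and 0, and with the GC and length correction 2 and 1. Higher genes made up 70.6% of all calls as deposited and 46.6%, 48.4% and 46.2% under these scalings. The difference was 0.96 for Eif1a (SE 0.16, limma adjusted p = 0.00367), whose change was 0.00 in Nudt21-/- cells, and 0.52 for Eif2s2 (SE 0.11, limma adjusted p = 0.00873). Both passed under every setting. With the replicate block Eif1b (0.0811), Eif2b2 (0.101) and Eif4h (0.11) were no longer called. Eif2s2 was at 27.3 and 23.9 FPKM in Nudt21-/- against 30.7 and 29.5 FPKM in its wild type. Eif2b1 differed by 0.49 (SE 0.10, limma adjusted p = 0.00678) and was lost only with the GC and length correction (0.0544). Eif4e3 and Eif4g2 moved the same way in both knockouts, and a difference between their changes did not pass.

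The wild types of the sets differed from each other as well. Nudt21 wild type libraries had 13 members higher and 3 lower than Mettl3 wild type libraries at 0 h, where 26% of all genes passed, 18.7% higher and 7.31% lower (limma). The excess of higher calls depended on the scaling, with 7 members higher and 5 lower after median-ratio scaling and 6 and 6 after quantile scaling. Higher genes made up 71.9% of all calls as deposited, and 47.7% and 45.7% under these scalings. In 22 members both Nudt21 wild types lay above all 3 Mettl3 wild types and in 6 below (39.8% and 18.6% of all genes). Eif6 stood at 67.7 and 61.7 against 37.5 to 44.5 FPKM (log2 change 0.63, SE 0.10, limma adjusted p = 0.00262). Eif2b2 stood at 41.7 and 40.1 against 28 to 29.1 FPKM (log2 change 0.50, SE 0.06, limma adjusted p = 0.00128), and Eif2b4 at 29 and 27.9 against 19.3 to 20.8 FPKM (log2 change 0.50, SE 0.07, limma adjusted p = 0.00253). These ranges did not overlap. Eif1ad (0.39) and Eif3g (0.33) were also higher, and Eif3e (-0.31), Eif4g2 (-0.26) and Eif2a (-0.17) were lower.

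None of the 16 calls between the wild types passed under every setting, and the GC and length correction left 1 higher and 0 lower, when higher genes made up 47.8% of all calls. Leaving out Nudt21 wild type 1 leaves 1 library in its group. Fewer members then passed, and fewer of all genes tested did so too, in both directions. Nudt21 wild type libraries were all male by Xist and Eif2s3y, as was wild type library 3 of the Mettl3 set. That library stood at 44.5 FPKM for Eif6, 29.1 FPKM for Eif2b2 and 19.5 FPKM for Eif2b4. As this is 1 library, the part of sex in the differences between the wild types was not tested. Erythroid and platelet markers stood at 334 and 253 FPKM in Nudt21 wild type against 15.7 to 27.4 FPKM, and set and these markers cannot be told apart here.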

How the data were processed

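Expression was analysed from the table the authors deposited, which gives FPKM per gene for 32285 rows and 12 libraries. The submitters' processing notes name Bowtie and the mm10 build and say nothing of what either was used for. How FPKM was computed, on which annotation and whether by strand, is not given in the sources used here, and genes that overlap on opposite strands cannot be told apart. The values are FPKM and not counts, so depth is unknown and no count test or counting interval was used.

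A gene was kept if 2 or more of the 12 libraries reached 1 FPKM. log2(FPKM + 1), a scale that understates changes of low genes, was fitted with limma 3.58.1 under R 4.3.3, with a trend in the empirical Bayes step, over all 12 libraries in 5 groups, with 7 residual degrees of freedom. P-values are two-sided, with Benjamini-Hochberg adjustment over 12511 genes within each of 5 comparisons, with a threshold of 0.05. Settings tried besides these numbered 22, and 1 more (crossed Nudt21 numbers) was added after seeing the data. The scripts were tested on simulated data.

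The members and lists were chosen with earlier results of these data known. Values per library were given for up to 8 members of largest change in each direction with activation and up to 6 in the other comparisons, further members of each role, paralog pairs and up to 4 genes of each pathway list.

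Deviations from group means were correlated between libraries. Same-numbered wild type libraries of the Mettl3 set at 0 h and 48 h correlated at 0.197, 0.177 and 0.187, each best with its own number. Same-numbered wild type and knockout libraries correlated at 0.117 and 0.187, and wild type 2 with knockout 1 at 0.0919. Same-numbered Nudt21 libraries correlated at -0.12. Deviations within a group of 2 mirror each other, so the values with such groups say little about pairing. The main fit did not use library numbers. Coding sequences (GENCODE M21) were aligned with Biopython 1.88. A comparison of protein sequences was not made. Figures were drawn with matplotlib 3.10.9.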

Additional observations from a re-analysis of the deposited data

Results flagged for a closer look

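For 9 members the change in Mettl3-/- cells differed from that in Nudt21-/- cells by a test of the difference itself (limma, adjusted p below 0.05). In all 9 the Mettl3-/- change was the more positive one. These are 20% of the members, where 25.3% of all genes tested passed, 17.8% higher and 7.44% lower. Higher genes made up 70.6% of all calls as deposited and 46.6% after median-ratio scaling. On the log2 scale the difference was 0.96 for Eif1a and 0.52 for Eif2s2, the pair that passed under every setting. It was 0.49 for Eif2b1, 0.48 for Eif3a, 0.40 for Eif1b, 0.36 for Eif1ad, 0.35 for Eif5, 0.30 for Eif2b2 and 0.26 for Eif4h. Of these 7, 1 was lost only with the GC and length correction (Eif2b1), and the other 6 were each lost without at least 2 of the libraries, among them Nudt21 wild type 1 for each, with adjusted p from 0.0503 to 0.121. Neither Eif1ad nor Eif4h nor Eif5 was called in Mettl3-/- cells alone (log2 0.15, 0.11 and -0.13). Mettl3-/- library 3 and both Nudt21-/- libraries carried raised markers of other cells, and Mettl3-/- library 1 raised CD8 T and NK cell markers. Their part in these differences was not tested. Leaving library 3 out leaves 1 Mettl3-/- library, and the Nudt21-/- libraries with their raised markers stay in the comparison.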

How the results depend on the processing

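Activation counts stayed within 1.5 times of 39 higher and 5 lower under every setting, and the changes that turned sign did so with the GC and length correction: Eif1b (-0.0709), Eif2b2 (-0.0561), Eif3f (-0.0945) and Eif3k (-0.0148), besides Eif4h between wild types (-0.0228). Against 8 higher and 1 lower in Mettl3-/- cells, counts were 4 and 5 with that correction, 2 and 0 with library weights, 1 and 0 with only the groups compared, 6 and 3 with median-ratio and 8 and 3 with quantile scaling, 6 and 2 with the replicate block, also with Nudt21 numbers crossed, and 5 to 10 and 1 to 3 with a library left out. Against 2 and 8 in Nudt21-/- cells they were 1 and 5 without a filter, 5 and 2 with median-ratio, 2 and 5 with quantile scaling, 1 and 4 with the correction, 1 and 6 with no trend, 0 and 7 with only the groups compared, 0 and 6 with the replicate block, 1 and 6 with crossed numbers, and 0 to 3 and 1 to 9 with a library left out. For the difference between knockouts (9 and 0) they were 4 and 0 without a filter, 3 and 0 with median-ratio scaling, 2 and 1 with the correction, 3 and 0 with weights, 5 and 0 with the groups compared, and 3 to 8 and 0 to 2 with a library left out. Between the wild types (13 and 3) they were 11 and 1 without a filter, 7 and 5, 6 and 6, and 1 and 0 under the 3 scalings in the order median-ratio, quantile and correction, 17 and 5 with weights, and 4 to 15 and 0 to 5 with a library left out. The block changed no activation call. Calls over all 12511 genes moved with these settings too. With library weights 748 were higher and 346 lower in Mettl3-/- cells, against 2103 and 1507 in the main fit. Between the wild types they were 3251 and 1386 with weights, against 2337 and 914. In Nudt21-/- cells they were 1983 and 2831 with only the groups compared, against 1092 and 2383. The cause was not tested in any of these. Unknown depth limits low members such as Eif5a2, and groups of 2 rest on the spread shared by all groups. The analyses with 1 library of a group of 2 left out assume that the lone library varies like the others.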
